A study of Mus musculus with 15 samples.

Results

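Border-associated macrophages were followed through 10 of their genes, Mrc1, Pf4, F13a1, Stab1, Lyve1, Cd163, Ms4a7, Cbr2, Dab2 and Siglec1, among the 53337 genes of the table. The members were named by symbol and all 10 were found. The tissue was E18 dorsal forebrain of C57BL/6J mice whose dams carried a subcutaneous osmotic minipump during gestation, filled with arginine vasopressin (AVP) or with saline, which the labels call vehicle. The 15 mRNA-seq libraries came from males with AVP (n = 4) or saline (n = 4) and from females with AVP (n = 3) or saline (n = 4), and the study left out a further AVP female as an outlier. The 4 groups shared the strain and the pump and differed in its content and in sex. Libraries are called by group and by the number in their title, as in saline male 4.

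Border-associated macrophages are the resident macrophages of the meninges, the perivascular spaces and the choroid plexus. They arise from yolk sac progenitors, as microglia do, but they stay outside the parenchyma, take up material through scavenger and lectin receptors, and lie among the fibroblasts of the meninges. Decorin (Dcn), a small proteoglycan secreted by those fibroblasts, therefore served as the reference for meningeal RNA. Whether Dcn tracks the amount of meningeal RNA in a library, or itself changes with AVP, was not tested. In bulk tissue, fewer cells of a type and less RNA per cell cannot be told apart.

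The promoters of 3 members that moved together are shown to place the transcripts measured. They are the 300 bases around the RefSeq start that hold the first base of the transcript with the highest mean level of that gene, on GRCm38.p6, each written 5′ to 3′ on the strand of the gene. F13a1 and Dab2 were chosen because their levels correlated most with those of Mrc1 over the 15 libraries, and Lyve1, the next, is only named. Capitals mark GAGGAA on either strand, the core of sites bound by PU.1, a transcription factor that macrophages need.
Mrc1 (chr2:14229164-14229463, plus strand): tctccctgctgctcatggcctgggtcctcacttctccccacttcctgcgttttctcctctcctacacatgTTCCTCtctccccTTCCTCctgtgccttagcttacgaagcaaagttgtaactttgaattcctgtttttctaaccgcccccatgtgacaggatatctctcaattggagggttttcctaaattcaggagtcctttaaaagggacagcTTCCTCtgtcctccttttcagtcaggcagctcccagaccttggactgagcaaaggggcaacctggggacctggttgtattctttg
F13a1 (chr13:37049164-37049463, minus strand): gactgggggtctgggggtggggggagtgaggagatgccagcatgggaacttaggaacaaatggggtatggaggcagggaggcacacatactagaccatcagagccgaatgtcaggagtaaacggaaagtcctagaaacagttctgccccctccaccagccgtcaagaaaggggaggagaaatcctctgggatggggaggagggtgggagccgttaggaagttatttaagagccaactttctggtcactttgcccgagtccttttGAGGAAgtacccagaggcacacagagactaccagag
Dab2 (chr15:6386498-6386797, plus strand): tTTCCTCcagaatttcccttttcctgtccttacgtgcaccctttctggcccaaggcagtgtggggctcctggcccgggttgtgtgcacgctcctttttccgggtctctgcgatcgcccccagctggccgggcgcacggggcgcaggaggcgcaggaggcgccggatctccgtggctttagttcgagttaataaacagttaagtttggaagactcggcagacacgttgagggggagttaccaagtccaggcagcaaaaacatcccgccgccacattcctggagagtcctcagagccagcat
The Mrc1 window held 3 such matches, and the F13a1 and Dab2 windows held 1 each. Among the 11 RefSeq windows of the 8 members that had one, 9 held the letters, against 28.3% of all 32851 windows. TGCTGA, the core of the MAF half-site, was in 3 of the 11 windows and in 19.5% of all, on either strand. These matches describe letters and not binding.

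The library labelled saline male 12 had 266 TPM, a length-corrected share of the library, of Xist and 0.489 TPM of 4 Y-linked genes together, while the other males had at most 1.12 and at least 102, so it went against its label. It was analysed under its label, and results were also computed without it. Saline male 4 had the lowest value of the 15 libraries in 8 of the 10 members and also the least Dcn. Cortical neuron genes were high in every library, with Neurod6 between 471 and 728 TPM and Tbr1 between 86.0 and 119 TPM. Csf1r, the receptor for macrophage growth factors and a marker of macrophages at large, had 7.18 ± 1.83 TPM (SD, n = 15).

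The members spanned a wide range of levels, given as TPM summed over all transcripts of a gene. TPM are per length, so sums can be set beside each other, but they mix coding and other transcripts. Over the 15 libraries, Pf4, a chemokine of platelets and of border macrophages, was highest at 17.6 ± 7.89 TPM (SD, n = 15). Stab1, a scavenger receptor, followed at 12.4 ± 4.57 TPM, and Dab2, an adaptor of clathrin-mediated uptake, at 11.7 ± 3.47 TPM. Stab1 exceeded Dab2 in only 8 of 15 libraries, so the pair was not ordered. The place of Stab1 holds for the sum alone, since 28.2% of it was in protein-coding transcripts. Its leading coding transcript, Stab1-201, had a mean of 3.247 TPM, beside 5.475 TPM for Mrc1-201 and 4.184 TPM for Lyve1-201. F13a1, the A subunit of coagulation factor XIII, had 8.84 ± 3.71 TPM and exceeded Mrc1 in 15 of 15 libraries. Mrc1, the mannose receptor CD206, had 5.85 ± 2.31 TPM, and Lyve1, a hyaluronan receptor, had 4.59 ± 1.65 TPM. The remaining members were near or under 1 TPM. Ms4a7, a membrane protein of the MS4A family, had 1.21 ± 0.570 TPM, Cbr2, a carbonyl reductase, 0.984 ± 0.326 TPM and Cd163, the receptor for haemoglobin and haptoglobin complexes, 0.937 ± 0.352 TPM, and these 3 were not ordered, with Ms4a7 above Cbr2 in 8 libraries and Cbr2 above Cd163 in 7. Siglec1, the sialic acid receptor sialoadhesin, was lowest, between 0.0225 and 0.176 TPM. The lowest and highest library differed 4.09-fold for Mrc1, 5.20-fold for Pf4 and 10.4-fold for Ms4a7.

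**Figure D1:**
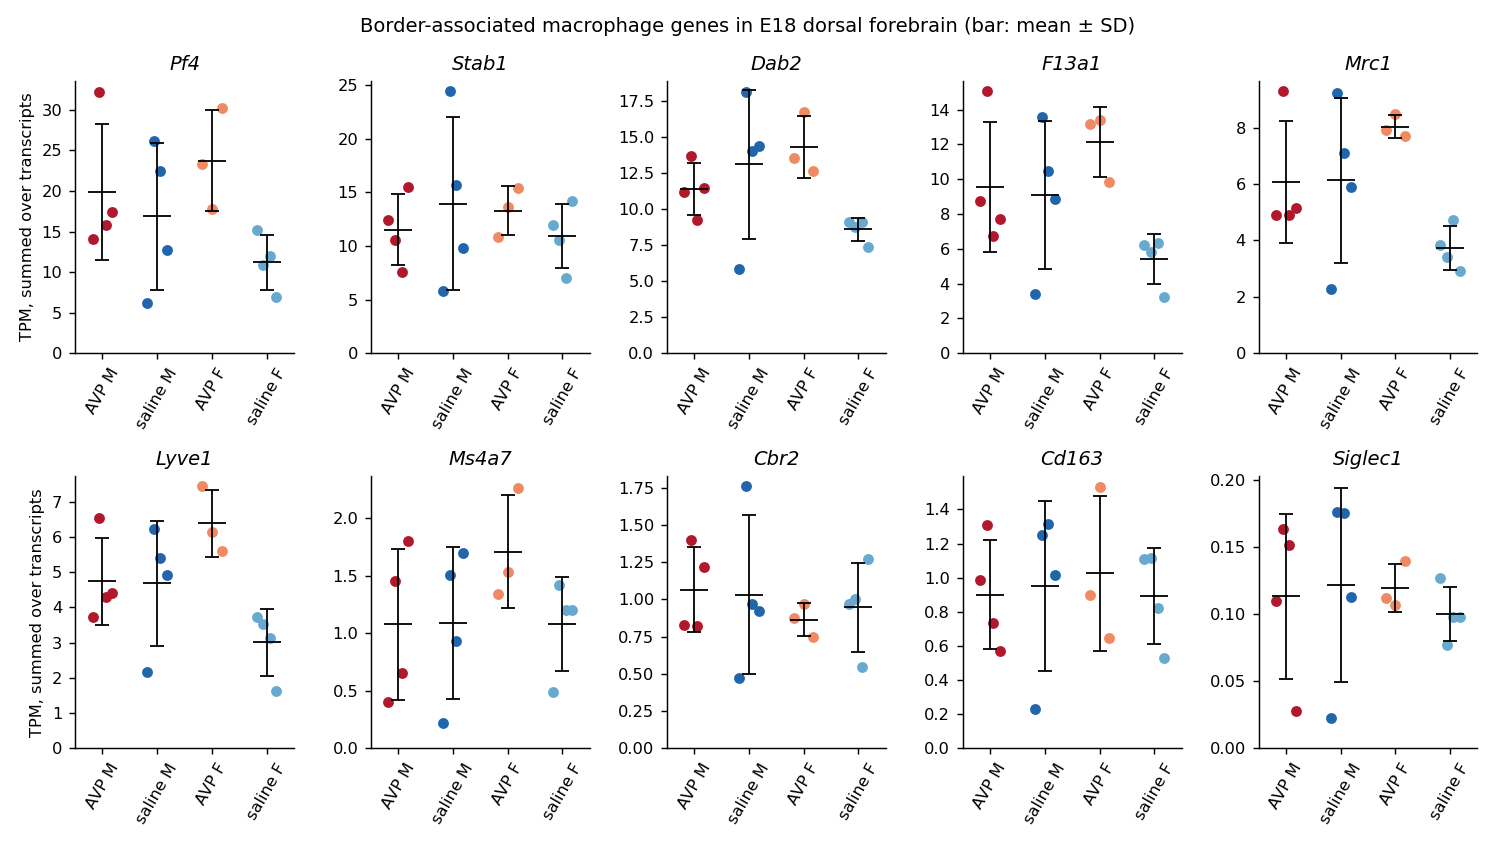
TPM of each member (vertical axis, from 0) in the 4 groups, with 1 point per library and the mean ± SD as a bar; M is male and F is female. The AVP female points of Mrc1, between 7.72 and 8.50 TPM, lie above all saline female points, while the male groups overlap in all 10 genes.

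The positions below are those of GENCODE M21 on GRCm38. Mrc1 (ENSMUSG00000026712) is at chr2:14229392-14332057 and Siglec1 at chr2:131069220-131086765. Pf4 (ENSMUSG00000029373) is at chr5:90772435-90773383, Cd163 at chr6:124304656-124330527 and Lyve1 (ENSMUSG00000030787) at chr7:110850607-110863239. Cbr2 is at chr11:120729489-120732114, F13a1 (ENSMUSG00000039109) at chr13:36867178-37050244 and Stab1 (ENSMUSG00000042286) at chr14:31139013-31168641. Dab2 (ENSMUSG00000022150) is at chr15:6299788-6440712 and Ms4a7 at chr19:11321039-11336146.

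Most members were measured through protein-coding transcripts, and Stab1 was not. The protein-coding share of the summed TPM was 93.5% for Mrc1, 97.2% for Pf4, 96.8% for F13a1, 91.2% for Lyve1 and 96.8% for Dab2. For Stab1 it was 28.2%, since retained-intron transcripts held 54.6% and a processed transcript of 242 nt held 17.2%. The protein-coding transcripts of Stab1 had 4.4 ± 0.186 TPM in AVP females (SD, n = 3) and 2.88 ± 1.04 TPM in saline females (SD, n = 4), while the other transcripts had 8.91 ± 2.49 and 8.05 ± 3.92 TPM. Over the 15 libraries the coding part correlated with Mrc1 at r = 0.85 and the other part at r = 0.33, given here as a description. Retained-intron transcripts also held 36.3% of Cd163 and 22.4% of Cbr2. F13a1 came mostly from F13a1-201, with 76.4% of the gene, and Dab2 was divided among several coding transcripts, of which Dab2-203 held 37.7%.

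**Figure D2:**
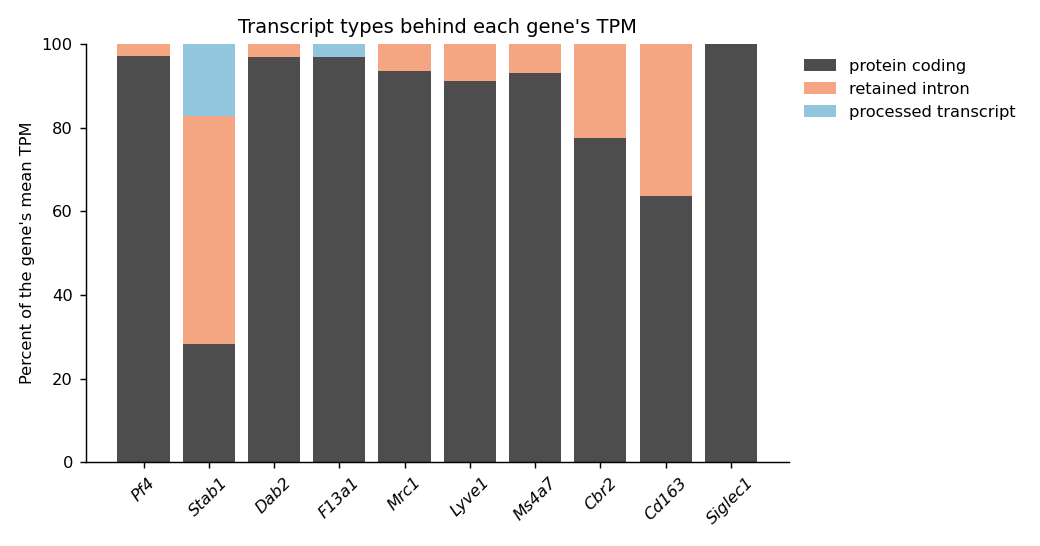
Percent of each gene's mean TPM over 15 libraries (vertical axis) by annotated transcript type, stacked to 100. Stab1 stands apart, with 28.2% in protein-coding transcripts.

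In females, 5 members were higher with AVP in every library, but no gene of the table passed the adjusted test. Mrc1 had 7.91, 8.50 and 7.72 TPM in the AVP females and 3.83, 3.42, 4.74 and 2.92 TPM in the saline females. The groups did not overlap, and the log2 difference on the log2(TPM + 0.5) scale was 1.03 ± 0.186 (SE), a 2.04-fold level (adjusted p = 0.998, limma with Benjamini-Hochberg adjustment). F13a1 had 13.2, 13.4 and 9.82 TPM with AVP and 6.23, 5.82, 6.31 and 3.25 TPM with saline. Its log2 difference was 1.13 ± 0.245 (SE).

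Pf4 had 23.3, 17.7 and 30.2 TPM in the AVP females and 15.1, 10.9, 11.96 and 6.93 TPM in the saline females. Its groups were also apart, by 1.07 ± 0.270 on the log2 scale (SE). Lyve1 had 7.43, 6.12 and 5.59 TPM with AVP and 3.73, 3.52, 3.13 and 1.63 TPM with saline. All AVP values again lay above all saline values, and the log2 difference was 1.01 ± 0.266 (SE). Dab2 had 13.5, 16.7 and 12.6 TPM with AVP and 9.11, 8.74, 9.06 and 7.35 TPM with saline. The saline females were close together, and the log2 difference was 0.70 ± 0.154 (SE).

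The other members overlapped between the female groups. Stab1 had 10.8, 13.7 and 15.4 TPM in the AVP females and 11.95, 10.6, 6.97 and 14.2 TPM in the saline females, a log2 difference of 0.30 ± 0.240 (SE). Ms4a7, with 1.71 ± 0.488 TPM (SD, n = 3) against 1.08 ± 0.406 TPM (SD, n = 4), differed by 0.51 ± 0.294 on the log2 scale (SE). Cd163, Cbr2 and Siglec1 were under the filter of 1 TPM in at least 50% of the libraries and differed by 0.11, -0.06 and 0.05 on the log2 scale. The groups were apart in 2 receptors, the chemokine, the coagulation factor and the uptake adaptor, and overlapped in the 3 least abundant members. The library labelled saline male 12, whose Xist was at the female level, had 7.11 TPM of Mrc1 and 5.41 TPM of Lyve1, under all AVP females, but its 10.5 TPM of F13a1, 22.4 TPM of Pf4 and 14.03 TPM of Dab2 each exceeded an AVP female.

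Over all 15132 genes tested in females, limma called 0 (0%) at an adjusted p of 0.05, and 683 had an unadjusted p under 0.05. An unadjusted p under 0.05 with a higher level was found for 2.34% of genes and for 5 of the 7 members tested, namely Mrc1, F13a1, Dab2, Pf4 and Lyve1. Their adjusted p-values lay between 0.998 and 0.999. All 3 AVP females exceeded all 4 saline females in 2.78% of the genes tested and in the same 5 members, and the exact two-sided permutation p was then 0.0571, the smallest that 3 against 4 libraries allow. The median log2 difference of the 7 members tested was 1.01, beside -0.05 over all genes. The study, with sleuth's Wald test at a false discovery rate under 0.05, listed Mrc1 and Dab2 as differentially expressed in females, where limma called neither. It used these same libraries, so the direction of both genes is not independent evidence. With protein-coding transcripts alone the adjusted p-values fell to 0.386 for Lyve1, 0.417 for F13a1, 0.441 for Mrc1, 0.462 for Pf4 and 0.471 for Dab2 (limma), and Stab1 and Ms4a7 then also separated the groups.

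The column names divide the libraries into runs of sample numbers, S1 to S8 and S13 to S20. The first run held AVP female 3 and saline females 6 and 7. The second held AVP females 10 and 11 and saline females 14 and 15. First-run values thus rest on AVP female 3 alone and cannot show that the AVP difference repeats. For Mrc1 the female difference was 1.03 in the first run and 1.02 in the second on the log2 scale, for F13a1 1.07 and 1.25, and for Pf4 0.84 and 1.30. Dab2 gave 0.57 and 0.80. For these genes the value was positive in either run, and for Stab1 it was -0.05 and 0.52.

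**Figure D3:**
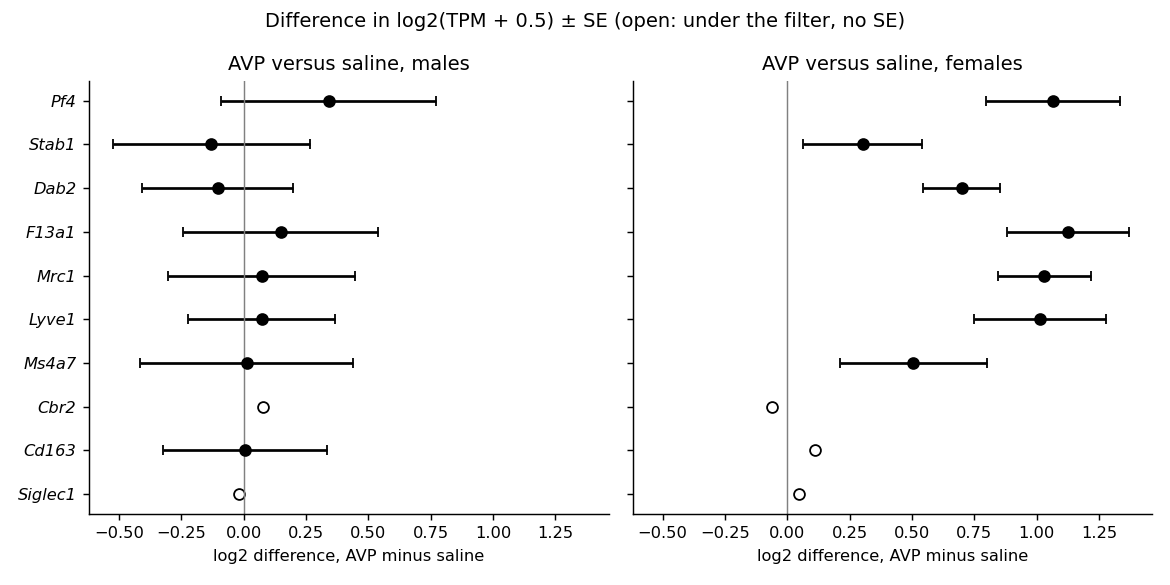
Difference in mean log2(TPM + 0.5) between AVP and saline libraries (horizontal axis) for each member in males and in females, with SE bars from limma and open points for members under the filter. Mrc1, F13a1, Pf4 and Lyve1 lie near 1 in females, and the male values lie between -0.13 and 0.34.

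In males no member passed the test between AVP and saline, and the groups overlapped in all 10. Mrc1 had 4.88, 9.31, 4.89 and 5.16 TPM in the AVP males and 2.28, 9.25, 7.11 and 5.90 TPM in the saline males. AVP male 2 was high and saline male 4 low, and the difference was 0.07 ± 0.376 on the log2 scale (SE, adjusted p = 0.947, limma). Pf4 had 14.02, 32.3, 15.8 and 17.4 TPM with AVP and 6.21, 26.2, 22.4 and 12.7 TPM with saline. F13a1 had 8.74, 15.1, 6.74 and 7.69 TPM with AVP and 3.42, 13.6, 10.5 and 8.85 TPM with saline. The same pair of libraries set the ends of the male range in both genes. Lyve1 had 3.72, 6.53, 4.30 and 4.41 TPM with AVP and 2.16, 6.23, 5.41 and 4.91 TPM with saline. Dab2 had 11.2, 13.7, 9.22 and 11.4 TPM with AVP and 5.85, 18.1, 14.03 and 14.4 TPM with saline. Here saline male 5 was the highest of all 15 libraries, and the difference was -0.10 ± 0.302 on the log2 scale (SE).

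Of 15271 genes tested in males, limma called 1 (0.00655%), which was not a member, and 2057 had an unadjusted p under 0.05. None of the 8 members tested had an unadjusted p under 0.05, their adjusted p-values lay between 0.751 and 0.995, and their median log2 difference was 0.04 beside -0.10 over all genes. Exact permutation p-values of the 10 members were between 0.6 and 1, where 4 against 4 libraries allow 0.0286. The median moved to -0.30 without saline male 4 and to -0.09 without AVP male 2. It was 0.16 without the library labelled saline male 12. Within the first run of sample numbers Mrc1 was 0.48 higher with AVP on the log2 scale, and within the second run 0.34 lower (-0.34), so the male direction was not shared by the runs.

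The test of the difference itself, the interaction of treatment and sex, called 0 of 15078 genes (0%) by limma, while 624 had an unadjusted p under 0.05. All 7 members tested had a more positive AVP difference in females than in males, with a median of 0.80 on the log2 scale beside 0.07 over all genes. Lyve1 (0.94 ± 0.421, SE) and Dab2 (0.80 ± 0.373, SE) had an unadjusted p under 0.05 in that direction, a share of 2 of 7 beside 2.52% of all genes, with adjusted p-values of 0.896 (limma). The study listed Dab2 in females from these same libraries, so the share is not independent of that list. Lyve1 and Dab2 also both followed Mrc1 (r = 0.925 and 0.940), so they are not separate observations. Mrc1 gave 0.96 ± 0.463 (SE) and Stab1 0.43 ± 0.515 (SE). The library labelled saline male 12, whose Xist was at the female level, entered this fit as a male. Without it the median of the 7 members tested was 0.737 on the log2 scale, and 0 genes were called (limma). The comparison shares its libraries with those within each sex.

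Between saline females and saline males no member passed the test. Mrc1 had 3.73 ± 0.773 TPM in saline females (SD, n = 4) and 6.13 ± 2.92 TPM in saline males (SD, n = 4), and the log2 difference of females minus males was -0.53 ± 0.351 (SE, adjusted p = 0.928, limma). The saline female values all lay within the range of the saline males. Limma called 1 of 15385 genes (0.0065%), which was not a member, and the median of the 8 members tested was -0.46 beside -0.04 over all genes. With saline male 12 left out that median was -0.325, and limma again called 1 gene, then higher in females rather than lower. The male SD was larger than the female SD in Mrc1, Pf4, F13a1, Lyve1 and Dab2, with saline male 4 at the bottom and saline male 5 at the top. These saline females are the same libraries to which the AVP females were compared.

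Dcn followed the same libraries as the members. It had 46.9, 68.7 and 65.9 TPM in the AVP females and 28.7, 28.2, 34.0 and 30.6 TPM in the saline females. The groups were apart, as for Mrc1, and the log2 difference was 0.97 ± 0.149 (SE, adjusted p = 0.998, limma). It had 43.4, 62.2, 29.4 and 44.5 TPM in the AVP males and 10.5, 63.6, 37.4 and 53.2 TPM in the saline males. Saline male 5 and AVP male 2 were the highest males and saline male 4 was the lowest. Dcn (ENSMUSG00000019929) is at chr10:97479609-97518143.

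Mrc1 correlated with Dcn over the 15 libraries at Pearson's r = 0.88 and Spearman's rho = 0.88 (permutation p = 1e-05 and 5e-05, adjusted p = 0.00377 and 0.0243). The p of 1e-05 is the smallest that the 100000 permutations can give. Dab2 gave r = 0.89 and rho = 0.85 (permutation p = 1e-05 and 0.00013, adjusted p = 0.00377 and 0.0338), and F13a1 gave r = 0.83 and rho = 0.85 (permutation p = 7e-05 and 0.00014, adjusted p = 0.0116 and 0.0346). Both tests were adjusted over 15077 genes, of which 1.06% had a positive r past the threshold, and 3 of the 7 members tested did.

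Pf4 reached r = 0.78 and rho = 0.75 (permutation p = 0.00058 and 0.00202, adjusted p = 0.0506 and 0.142), Lyve1 r = 0.75 and rho = 0.79 (permutation p = 0.00138 and 0.00073, adjusted p = 0.0896 and 0.0867) and Ms4a7 r = 0.75 and rho = 0.74 (permutation p = 0.00131 and 0.00244, adjusted p = 0.0862 and 0.159). These and Stab1 (r = 0.64, rho = 0.46, permutation p = 0.0105 and 0.0824, adjusted p = 0.275 and 0.6) did not pass. Cd163, Siglec1 and Cbr2, under the filter, had r of 0.65, 0.55 and 0.55. The microglial P2ry12, a purine receptor, had r = 0.36 and rho = 0.35 (permutation p = 0.193 and 0.207, adjusted p = 0.669 and 0.755). Csf1r had r = 0.60 and rho = 0.52 (permutation p = 0.0199 and 0.0512, adjusted p = 0.366 and 0.528). Cldn5, a tight junction gene of endothelium, had r = 0.73 and rho = 0.59 (permutation p = 0.00213 and 0.022, adjusted p = 0.116 and 0.398), an r near those of Pf4, Lyve1 and Ms4a7. Differences between these correlations were not tested.

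Leaving out the pair farthest from the median of Dcn, saline male 4 and AVP female 10, r stayed at 0.85 for Mrc1, 0.83 for Dab2 and 0.78 for F13a1. It went to 0.45 for Stab1, 0.32 for Cbr2, 0.30 for Siglec1 and 0.17 for Cd163, whose relations rested largely on those libraries. Within the runs of sample numbers, Mrc1 had r = 0.93 and 0.78, and Dab2 had 0.96 and 0.81. With the 4 group means removed, r was 0.88 for Mrc1, 0.94 for Dab2 and 0.80 for F13a1, so the relation was also present among libraries of the same group. These values include saline male 4. Without it, the slopes within groups of the fit below stayed positive, at 0.56 for Mrc1 and 0.42 for Dab2, but no gene passed (limma).

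**Figure D4:**
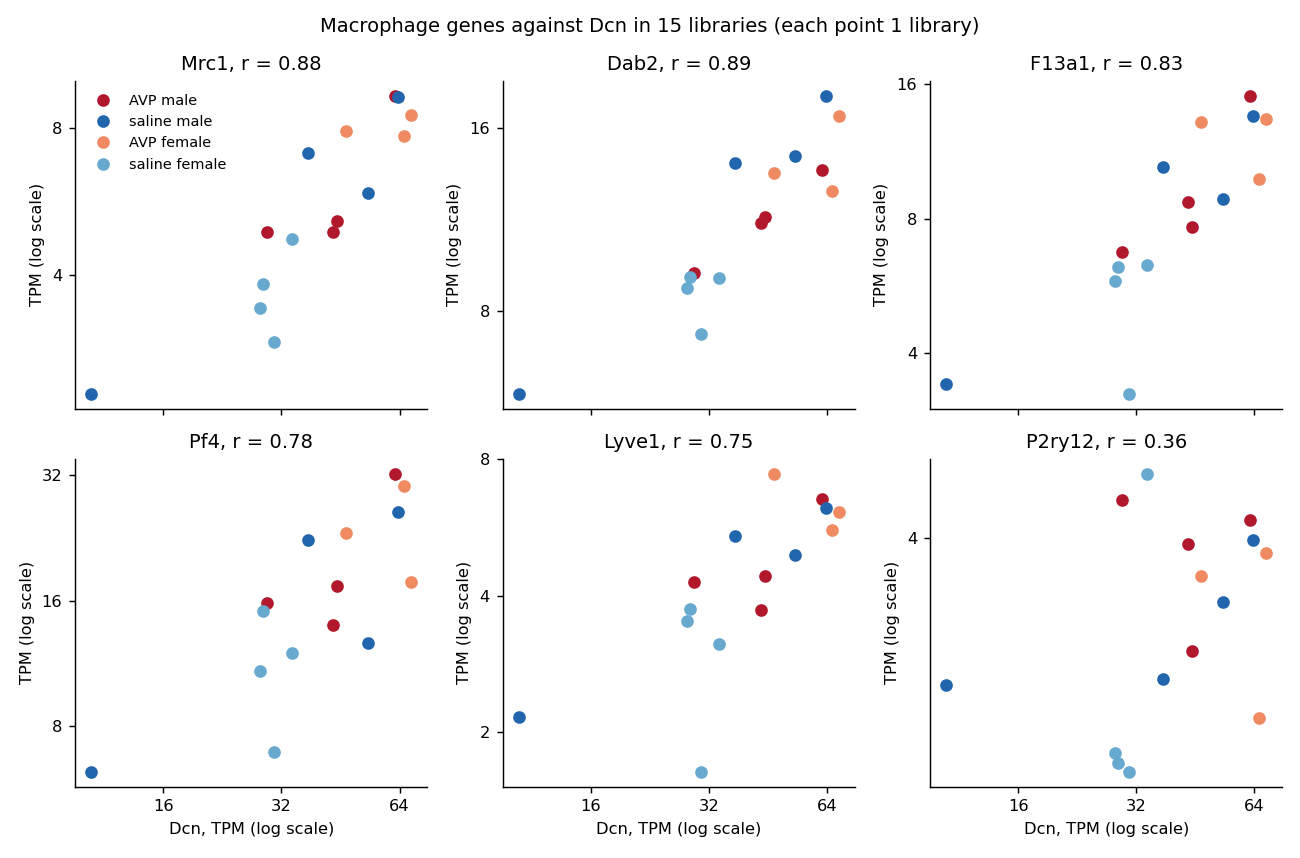
TPM of 5 members and of P2ry12 against TPM of Dcn, both on log scales, with 1 point per library coloured by group. Mrc1, Dab2 and F13a1 rise with Dcn at r = 0.88, 0.89 and 0.83, with saline male 4 at the lower left, and P2ry12 has r = 0.36.

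In the fit with the 4 group means as covariates, the slope on log2 Dcn was positive for all 7 members tested and passed the threshold for 2 of them, while 0.371% of 15077 genes passed, all 56 of them with a positive slope. Dab2 had a slope of 0.56 ± 0.074 (SE, adjusted p = 0.00491, limma) and Mrc1 of 0.65 ± 0.113 (SE, adjusted p = 0.0258, limma). The slopes of F13a1 (0.66), Pf4 (0.65) and Ms4a7 (0.64) were as steep as that of Mrc1 but did not pass, with adjusted p-values of 0.0929, 0.321 and 0.275 (limma). The median slope of the members was 0.64, beside -0.01 over all genes. Both members passed without the library labelled saline male 12 (adjusted p = 0.00986 for Dab2 and 0.0416 for Mrc1, limma). The calls rested on other single libraries, since without saline male 4 no gene passed (adjusted p = 1.0 for both, limma, slopes 0.42 for Dab2 and 0.56 for Mrc1) and without saline male 5 neither member did, with 10 genes left. Without AVP male 2 or AVP male 8 Dab2 alone was called among the members, and with protein-coding transcripts Mrc1 had an adjusted p of 0.0565 while F13a1 and Lyve1 passed.

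Set against Dcn within the same library, the female difference was under 0.2 on the log2 scale for Mrc1, F13a1, Pf4 and Lyve1. The log2 ratio of Mrc1 to Dcn was -2.82 ± 0.282 in AVP females (SD, n = 3) and -2.88 ± 0.214 in saline females (SD, n = 4), a difference of 0.07 (exact permutation p = 0.8). For F13a1, Pf4 and Lyve1 the difference in this ratio was 0.16, 0.10 and 0.05, and for Dab2 and Stab1 it was -0.27 and -0.66, with overlapping groups in each. Set against Csf1r, the log2 ratio of Mrc1 was 0.09 ± 0.174 in AVP females (SD, n = 3) and -0.74 ± 0.216 in saline females (SD, n = 4), a difference of 0.83 with the groups apart (exact permutation p = 0.0571). The same ratio differed by 0.92 for F13a1, 0.81 for Lyve1 and 0.50 for Dab2, each without overlap, and with overlap by 0.86 for Pf4 and 0.10 for Stab1 (exact permutation p = 0.914). Set against P2ry12, Mrc1 differed by 0.79 and F13a1 by 0.88 without overlap (exact permutation p = 0.0571 for each). Pf4 (0.83), Lyve1 (0.77), Dab2 (0.46) and Stab1 (0.06) overlapped in that ratio, with exact permutation p-values between 0.114 and 1. These ratios were chosen after the values had been seen. With Dcn as a covariate the female difference of Mrc1 was 0.73 ± 0.563 (SE). Every AVP female had more Dcn than every saline female, so this fit cannot separate Dcn from treatment. The ratio to Dcn has the same limit.

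Among other gene lists in the same fit on Dcn, 14 of 22 meningeal fibroblast genes tested were called, among them the collagen gene Col1a1 (slope 0.78) and lumican, Lum (slope 0.82). Of 14 genes tested on a wider list of border macrophage genes 1 was called, Fcgrt, the neonatal Fc receptor (slope 0.54 ± 0.101, SE, adjusted p = 0.0342, limma), and the median slope was 0.28. None of 16 shared macrophage genes (6 with an unadjusted p under 0.05) or of 10 microglia genes (2 with an unadjusted p under 0.05) was called by limma, with median slopes of 0.33 and 0.15. Over all genes 4.13% had an unadjusted p under 0.05 with a positive slope. Red blood cell genes had a median of 0.53, with 5 of 5 positive and 1 with an unadjusted p under 0.05. Lymphatic, endothelial, mural, dorsal forebrain neuron and choroid plexus genes had medians of 0.22, 0.20, 0.15, -0.04 and -0.14. Differences between the lists were not tested. The genes that the study drew from these same libraries include Dcn itself, collagen genes, Postn, Cldn11 and Slc6a13, so neither the female difference of Dcn nor the fibroblast list is independent evidence.

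**Figure D5:**
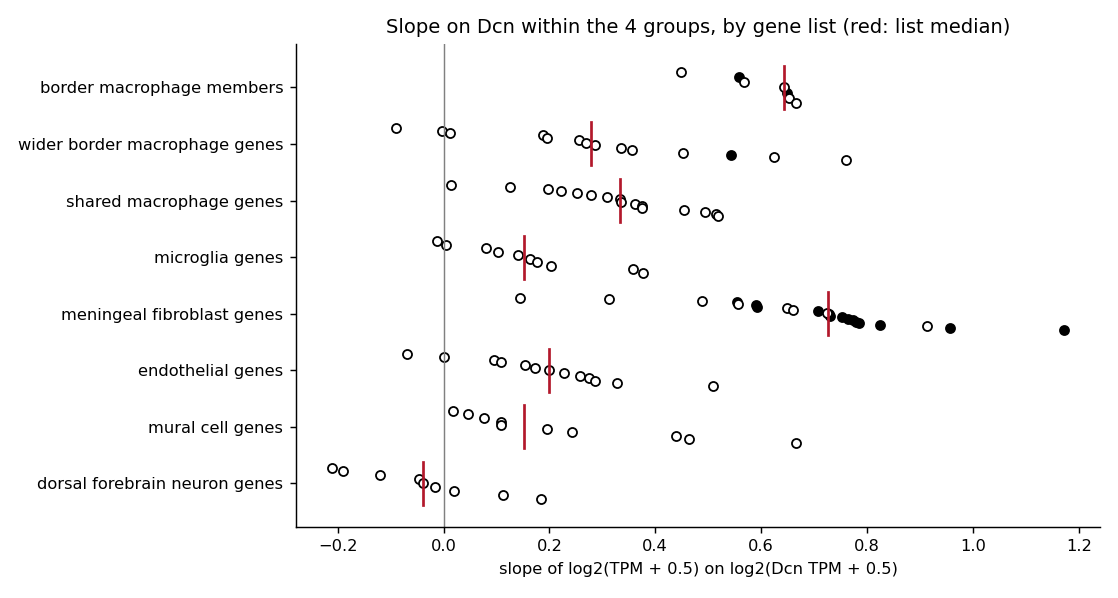
Slope of log2(TPM + 0.5) on log2(Dcn TPM + 0.5) for each gene tested (horizontal axis), by gene list, from the fit with the 4 group means; filled points passed an adjusted p of 0.05 and red lines are list medians. The members have a median of 0.64, the meningeal fibroblast genes 0.73 and the microglia genes 0.15. The red blood cell genes, with a median of 0.53, are not drawn.

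In the female comparison no gene of these lists was called by limma. All 22 meningeal fibroblast genes tested were higher with AVP, 17 of them with an unadjusted p under 0.05, and their median was 0.84 on the log2 scale. Their summed level was between 511 and 667 TPM in the AVP females and between 285 and 372 TPM in the saline females. On the wider border macrophage list 12 of 14 were higher, 6 with an unadjusted p under 0.05, and the median was 0.34. They included Colec12, a scavenger receptor of the collectin family (0.99 ± 0.300, SE), Ms4a6c (0.86 ± 0.236, SE) and Folr2, the folate receptor of resident macrophages (0.77 ± 0.304, SE). Of the shared macrophage genes 15 of 18 were higher but none had an unadjusted p under 0.05, with a median of 0.15. Csf1r differed by 0.20 ± 0.230 (SE) and Spi1, which encodes PU.1, by 0.43 ± 0.195 (SE). Of the microglia genes 5 were higher and 7 lower, with a median of -0.06, and P2ry12 differed by 0.24 ± 0.295 (SE).

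Genes of macrophage growth and attraction were mixed in females, with 11 of 15 higher and 4 lower. Cxcl12, a chemokine made by meninges and vessels, differed by 0.63 ± 0.177 (SE), Csf1, a ligand of Csf1r, by 0.47 ± 0.176 (SE) and Il34, the other ligand, by 0.33 ± 0.238 (SE). Cxcl12 and Csf1 had an unadjusted p under 0.05, and none of the 4 lower genes did. The lower genes included Csf2ra, with a mean of 21.8 TPM in AVP females and 26.3 TPM in saline females. For Tgfbr1 these means were 35.8 and 42.4 TPM, and for Cx3cl1 12.8 and 16.1 TPM, with overlapping groups in each. On the list of scavenger and endocytic receptors, which also holds members, 9 of 14 were higher and the median was 0.17. In males the wider border macrophage list had 4 of 14 higher, with a median of -0.11, and the shared list 4 of 17, with a median of -0.19.

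Other cells that carry some of these transcripts were also measured. Pf4 and F13a1 are made by megakaryocytes, and 2 of the 10 genes on the megakaryocyte and platelet list passed the filter. These, Gp1bb and Itga2b, were both lower with AVP in females, by -0.37 ± 0.165 and -0.26 ± 0.329 (SE). Gp1bb had a mean of 20.3 TPM over the 15 libraries, far from Gp1ba, Gp9 and Ppbp of the same list (0.00797, 0.217 and 0.157 TPM). Whether Gp1bb came from platelets was not tested. Under the filter, Gp9 had 0.350 ± 0.0452 TPM in AVP females (SD, n = 3) and 0.118 ± 0.0928 TPM in saline females (SD, n = 4), and its groups were apart. Ppbp had 0.276 ± 0.252 TPM in AVP females (SD, n = 3) and 0.0968 ± 0.0687 TPM in saline females (SD, n = 4), and its groups overlapped. For Lyve1, which lymphatic endothelium also makes, the lymphatic genes had 3 of 4 higher in AVP females, with Prox1 at -0.18 ± 0.358 (SE) and Mmrn1 at 0.72 ± 0.335 (SE). Among blood and choroid genes, the 5 globin and red cell genes tested were all higher in AVP females (median 1.04, 5 with an unadjusted p under 0.05), as were the 5 choroid plexus genes (median 1.71, 2 with an unadjusted p under 0.05). Endothelial genes had 11 of 13 higher with a median of 0.39, mural cell genes 9 of 10 with a median of 0.30, and the 3 monocyte and neutrophil genes tested a median of 0.65. Dorsal forebrain neuron genes had a median of 0.01. Their part in the female difference was not tested.

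The members moved together to different degrees. Over the 45 pairs, r between 2 members on the log2 scale ran from 0.19 to 0.97 with a median of 0.59, in libraries that share the depth and composition of each dissection. Mrc1 was closest to F13a1 (r = 0.97), Dab2 (r = 0.94), Lyve1 (r = 0.93) and Pf4 (r = 0.92). It was farther from Cbr2 (r = 0.44) and from the summed TPM of Stab1 (r = 0.52), whose protein-coding part alone had r = 0.85. Ranked by the mean of their standardized levels, the highest libraries were saline male 5 and AVP male 2, then AVP female 10, and the lowest were saline female 15 and saline male 4. Among 15579 other genes with a mean of at least 1 TPM, the 8 most like that mean were Col1a2 (r = 0.95), Fcgrt (r = 0.94), Col6a2 (r = 0.94), Tgfbr3 (r = 0.94), Anxa2 (r = 0.94), Slc6a13 (r = 0.93), Itga11 (r = 0.93) and Cdh5 (r = 0.93). Col1a2 and Col6a2 encode collagen chains, Slc6a13 a transporter of the meninges, and Cdh5 the cadherin of endothelium.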

How the data were processed

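The data were mRNA-seq libraries of 15 E18 dorsal forebrains, and, per the paper, the libraries of a group came from separate litters. By the paper's count the litters were fewer than the libraries, so males and females of a treatment shared litters. The labels do not say which libraries are littermates. Tests over both sexes took libraries as independent, and their p-values do not account for shared litters. The authors trimmed reads with Trim Galore 0.4.1, quasi-mapped them to GENCODE M16 transcripts (GRCm38) with kallisto 0.43.1 and deposited TPM per transcript. TPM keep no counts, so depth is unknown and no counting interval is given. The 133849 transcripts were added up per gene by GENCODE M21, and 404 transcripts without a gene held 0.154% to 0.199% of TPM.

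Genes that reached 1 TPM in 50% or more of the libraries compared entered limma 3.58.1 (R 4.3.3, mean-variance trend, two-sided) as log2(TPM + 0.5), with Benjamini-Hochberg adjustment and a threshold of 0.05. This scale understates changes of low genes. AVP and saline were compared within each sex, without covariates, and the interaction, saline females against males, and the slope on Dcn were 3 further fits. Members also had exact permutation tests and correlations with Dcn (100000 permutations, scipy 1.17.1). The fits were tested on simulated data. P-values measure the spread between these libraries.

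The members and gene lists were chosen with earlier results of these data known. Named genes were the members, Dcn, Lum and Col1a1, the first 2 genes and up to 3 with the smallest p of each list, and the 8 genes most like the members. Of these, those that show each list's direction are printed, with some further genes of a list named after the values were seen. Alternatives were pseudocounts of 0.1 and 1, no filter, 5 TPM in every library, median-of-ratios scaling, quantile normalization, no trend, the run of sample numbers, protein-coding transcripts, 1 fit of all libraries, Dcn as a covariate, other predictors, and leaving out each library. Promoters are from RefSeq (GRCm38.p6).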

Additional observations from a re-analysis of the deposited data

Results flagged for a closer look

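In 2 of the 39 groups of 4 libraries examined, 1 library stood apart from the others by its gap to the nearest value relative to the range, and chance gives about 1 in 20. Mrc1 in AVP male 2 was 9.31 TPM, with the other AVP males between 4.88 and 5.16 TPM (gap 0.917 of the range on the log2 scale). F13a1 in saline female 15 was 3.25 TPM, with the other saline females between 5.82 and 6.31 TPM (gap 0.874 of the range on the log2 scale).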

How the results depend on the processing

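The female directions held in every alternative for Mrc1, Pf4, F13a1, Lyve1 and Dab2. Ms4a7 was -0.167 with Dcn as a covariate, and Stab1, positive in the fits, was -0.05 within S1 to S8. Of the female member values, 121 of 122 kept their direction and stayed short of the threshold, and so did 164 of 164 for the interaction, 116 of 138 in males and 123 of 130 between saline females and males. The female median of the members was 0.603 with no filter, 0.700 with 5 TPM in every library and 0.730 with Dcn as a covariate. In males the count of genes called was 0 with a pseudocount of 1, with 5 TPM in every library, with the run of sample numbers, with protein-coding transcripts, in 1 fit of all libraries and with Dcn as a covariate, and 2 without the trend. The male median was -0.104 with 5 TPM in every library and -0.160 with Dcn as a covariate, under which Cd163 was -0.164, Ms4a7 -0.207, Mrc1 -0.156, Lyve1 -0.101 and F13a1 -0.095. With a pseudocount of 1 Cd163 was -0.011 in males and -0.013 between saline females and males, Dab2 in males was 0.005 with median-of-ratios scaling and 0.027 with quantile normalization, and Stab1 was 0.001 with the latter. Between saline females and males 0 genes were called with a pseudocount of 1, with no filter, with 5 TPM in every library and with protein-coding transcripts. The slope on Dcn was positive for every member tested in every alternative, but the genes called numbered 181 with no filter, 16 with 5 TPM in every library (1 member), 98 with the run of sample numbers, 109 with protein-coding transcripts, 104 with the fibroblast list as predictor, 87 with Lum and 178 with no covariates (5 members). The median r with Dcn was 0.911 within S1 to S8, and within S13 to S20 Cbr2 had r = -0.030 and Siglec1 r = -0.081.

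Leaving out 1 library at a time, the genes called ranged from 0 to 6 in males, 0 to 6 in females, 0 to 1 for the interaction, 0 to 4 between saline females and males, and 0 to 83 for the slope on Dcn, where the members called ranged from 0 to 3. The male median ranged from -0.298 to 0.265, Pf4 from -0.054 to 0.610, F13a1 from -0.234 to 0.381, Mrc1 from -0.300 to 0.304, Lyve1 from -0.221 to 0.225, Cd163 from -0.296 to 0.125, Ms4a7 from -0.328 to 0.247, Dab2 from -0.435 to 0.082 and Stab1 from -0.467 to 0.194. The female median ranged from 0.712 to 1.049. Between saline females and males the median ranged from -0.819 to -0.229, Cd163 from -0.299 to 0.142, Ms4a7 from -0.270 to 0.281 and Stab1 from -0.539 to 0.122. In the females, the members whose groups were apart numbered 5 to 6 without 1 library and 7 with protein-coding transcripts, which were chosen after seeing the data. No paired analysis was possible because the labels give the groups no shared replicate numbers. The cause of these changes was not tested.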
